A study of Homo sapiens with 15 samples.

Results

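The CREB3 family of membrane-bound transcription factors was examined in LNCaP, a human prostate cancer cell line that responds to androgen. The members considered were CREB3, CREB3L1, CREB3L2 and CREB3L4, and the expression table, which lists 17272 genes, gave values for 3 of these 4. CREB3L1 was not analysed here. Both groups of libraries came from cells kept for 2 days in charcoal-stripped serum, whose steroid content is low, and harvested after 22 h of treatment. In 5 libraries the cells had received 1 nM R1881, a synthetic androgen, together with 2 µM darolutamide, an antiandrogen drug, and in 10 libraries they had received 1 nM R1881 with the vehicle DMSO. The R1881 dose and the group sizes follow the sample labels, whereas the methods of the study exchange the sizes of the groups and give a higher R1881 concentration. The darolutamide dose is the one given in those methods, and the column labels call it high. The samples represent 1 cell line, and both groups carry R1881, so that a level without androgen was not measured.

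The proteins of this family are made as precursors anchored in the membrane of the endoplasmic reticulum (ER). They travel to the Golgi apparatus, where the site-1 and site-2 proteases cut them, and the released bZIP fragment moves to the nucleus and activates genes of the secretory pathway. CREB3L4 is also known as AIbZIP, for androgen-induced bZIP, and is abundant in prostate epithelium. CREB3L2, also known as BBF2H7, drives the COPII gene Sec23a in mouse cartilage cells, and CREB3, also known as Luman, binds the host cell factor HCFC1. The values below are transcript levels and do not measure cleavage or nuclear entry.

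Expression of all 3 measured members was lower with darolutamide, in the order CREB3L4, CREB3L2 and CREB3 by size of the change. Levels are in CPM, the reads of a gene relative to the scaled size of its library, with no correction for gene length. CREB3L4 averaged 108 ± 4.50 CPM in R1881 + darolutamide cells (SD, n = 5) and 258 ± 9.60 CPM in R1881 cells (SD, n = 10), CREB3L2 averaged 62.7 ± 2.68 and 113 ± 6.61 CPM in the same order of groups, and CREB3 averaged 34.5 ± 3.42 and 42.0 ± 2.39 CPM. All 3 passed the test across all genes, limma's trend test on log2(CPM + 0.5) with Benjamini-Hochberg adjusted p under 0.05, whereas 23.7% of all genes were called lower and 22.8% higher. The calls over all genes came to 4098 lower and 3946 higher, and to 3030 lower and 5326 higher with each library scaled to its total reads, where the 3 members were still called lower.

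The 300 bases around each start site are shown as a description, and their part in the changes was not tested. They run from 250 bases before to 50 bases after the start of transcription, and are taken from RefSeq on GRCh38.p14. Of the members with values, 3 of 3 had a window in that collection, and CREB3L2 had a further one at an internal start site, which is not shown. The CREB3L4 window shown also lies inside the gene, since it begins at 153968000 and the GENCODE span of CREB3L4 begins at 153967534. The capitals mark matches on either strand to TGACGTCA (the cAMP response element), to its core TGACG, to ACGTG and CCACG (parts of ER stress elements), to CCAAT (the NF-Y box), and to AGAACA (a steroid receptor hexamer). ACGTG and CCACG can overlap, and TGACGTCA contains TGACG on both strands.

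CREB3L4, chr1:153968000-153968299, plus strand: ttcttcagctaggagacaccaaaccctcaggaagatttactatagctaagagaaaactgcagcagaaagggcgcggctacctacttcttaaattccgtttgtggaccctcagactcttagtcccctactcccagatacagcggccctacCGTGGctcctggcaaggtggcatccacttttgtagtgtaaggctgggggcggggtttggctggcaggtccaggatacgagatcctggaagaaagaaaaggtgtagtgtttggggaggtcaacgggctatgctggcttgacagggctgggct

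CREB3L2, chr7:138002037-138002336, minus strand: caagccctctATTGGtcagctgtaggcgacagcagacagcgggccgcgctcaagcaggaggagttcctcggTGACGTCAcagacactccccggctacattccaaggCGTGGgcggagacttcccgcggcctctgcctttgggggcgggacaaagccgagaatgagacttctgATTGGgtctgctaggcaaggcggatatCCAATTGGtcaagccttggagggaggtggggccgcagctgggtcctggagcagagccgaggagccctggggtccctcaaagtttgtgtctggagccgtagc

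CREB3, chr9:35732416-35732715, plus strand: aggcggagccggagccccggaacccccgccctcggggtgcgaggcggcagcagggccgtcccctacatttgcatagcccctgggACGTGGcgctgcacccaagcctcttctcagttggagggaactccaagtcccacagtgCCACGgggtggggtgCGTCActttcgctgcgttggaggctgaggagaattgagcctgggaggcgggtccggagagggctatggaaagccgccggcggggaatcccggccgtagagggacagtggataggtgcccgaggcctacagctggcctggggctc

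The 3 windows differed in composition and in the motifs they held. The CREB3L2 window carried the complete element TGACGTCA at position -179 from the start site, which 1.98% of 27305 RefSeq promoter windows of this length hold, and 4 matches to CCAAT, of which 2 overlap, against 35.7% of windows with at least 1. It also held CCACG on the other strand at -144. The CREB3 window held ACGTG at -166, overlapped by CCACG read on the other strand at -165, a further CCACG at -109, and TGACG on the other strand at -94. The corresponding shares of all windows were 21.6% for ACGTG, 37.9% for CCACG and 25.0% for TGACG. The CREB3L4 window held only 1 match to the motifs searched, CCACG on the other strand at -101, and its first part lies within the span of SLC39A1 on the opposite strand. AGAACA was in none of the 3 windows shown but stood on the other strand at -42 in the window of the internal CREB3L2 start site, its only match to the motifs searched, and 14.9% of all windows hold it. GC content was 53.3% for CREB3L4, 62.3% for CREB3L2 and 68.3% for CREB3, with a median of 58.3% over all windows. A match is a description of the letters and shows no binding.

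Library depth and sample identity bear on all values. The libraries held 21870398 to 25317567 reads over the listed genes with R1881 + darolutamide and 15830745 to 24316740 reads with R1881. The labels number the libraries 86 to 90 with darolutamide and 51 to 55 and 71 to 75 with R1881. A run here is such a stretch of consecutive library numbers, and the labels do not say what it stands for. No run of numbers holds both treatments, so an effect of the treatment and a difference of its run cannot be told apart. KLK3, the androgen-induced PSA gene, was 615 ± 55.9 CPM with R1881 + darolutamide and 1588 ± 209 CPM with R1881 (limma log2 fold change -1.36, adjusted p = 3.26e-10), and it averaged 1779 CPM in the R1881 libraries numbered 71 to 75 and 1397 CPM in those numbered 51 to 55. Of 12 androgen-induced genes, 11 were called lower, a share of 91.7% beside 23.7% of all genes. ACPP, at 214 CPM with R1881 + darolutamide and 218 CPM with R1881, was not called. Of 8 luminal markers, 3 were called lower and 3 higher (37.5% each, beside 23.7% and 22.8% of all genes), and 2 were not called. The keratins were lower, with KRT8 at 379 ± 116 CPM with R1881 + darolutamide and 1581 ± 192 CPM with R1881. KRT18 was at 262 ± 26.6 and 925 ± 53.0 CPM in the same order. FOLH1 was higher at 1245 ± 86.6 and 740 ± 37.1 CPM, as was EPCAM at 90.2 ± 5.58 and 81.7 ± 3.97 CPM. CDH1 averaged 852 and 809 CPM, and HOXB13 averaged 291 and 283 CPM. None of 3 leukocyte markers had a value. Of 6 fibroblast markers, COL1A1, COL3A1 and LUM had values, all called higher, beside 22.8% of all genes. They summed to 13.5 to 30.6 CPM with R1881 + darolutamide and 6.36 to 10.5 CPM with R1881. COL1A1 overlapped between the groups, at 5.55 to 20.6 and 4.38 to 8.43 CPM in the same order. LUM lay at only 0.36 to 0.63 and 0.09 to 0.31 CPM. VWF, the only 1 of 3 endothelial markers with a value, lay at 3.56 to 4.10 and 2.08 to 2.84 CPM. The share of reads from mitochondrially encoded genes was 3.12% to 3.94% with R1881 + darolutamide and 2.65% to 3.02% with R1881. The part of these differences in the results was not tested. R1881 + darolutamide replicate 4 stood apart on the second principal component, with a score of 51.0 against -30.5 to -3.04 in the other libraries of its group, and replicate 3 lay at the opposite end.

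CREB3L4 lies on chromosome 1 of GRCh38 from 153967534 to 153974361 on the plus strand, and its MANE Select transcript has 10 exons. With R1881 + darolutamide it was 110.7, 103.9, 103.2, 113.4 and 110.3 CPM in replicates 1 to 5. With R1881 it was 241.3 CPM at the lowest, 258.4 at the median and 274.8 at the highest. The groups were far apart, since the highest R1881 + darolutamide library lay well below the lowest R1881 library. The log2 fold change was -1.25 (SE 0.034, 95% interval -1.32 to -1.18, adjusted p = 2.68e-15 from limma), so that 42.0% of the R1881 level was left. Among all 17272 genes this was the fall of rank 240 by log2 fold change and rank 54 by p. Of the 12 androgen-induced genes, 6 fell by more on the log2 scale.

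CREB3L2 lies on chromosome 7 from 137874979 to 138002086 on the minus strand, and its MANE Select transcript has 12 exons. With R1881 + darolutamide it was 65.7, 60.4, 65.1, 59.8 and 62.5 CPM in replicates 1 to 5. With R1881 it was 103.6 CPM at the lowest, 112.7 at the median and 123.8 at the highest. No library of either group reached the range of the other. The log2 fold change was -0.85 (SE 0.043, 95% interval -0.94 to -0.76, adjusted p = 1.98e-11 from limma), which leaves 55.5% of the R1881 level.

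CREB3 lies on chromosome 9 from 35732598 to 35736999 on the plus strand, and its MANE Select transcript has 9 exons. With R1881 + darolutamide it was 31.8, 35.3, 31.7, 40.0 and 33.5 CPM in replicates 1 to 5. With R1881 it was 38.7 CPM at the lowest, 41.7 at the median and 45.7 at the highest. The groups overlapped through R1881 + darolutamide replicate 4, and the other 4 libraries lay below every R1881 library. The log2 fold change was -0.29 (SE 0.056, 95% interval -0.40 to -0.17, adjusted p = 0.000370 from limma), a level of 82.0% of that with R1881. Without R1881 + darolutamide replicate 4 it was -0.34, and without replicates 3 and 4 together it was -0.32. In this replicate CREB3 and CREB3L4 were at their highest of the 5 libraries and CREB3L2 at its lowest. Of the 3 members, CREB3L4 and CREB3L2 had no overlap between groups with darolutamide lower, and this held for 12.6% of all genes. In bulk RNA, fewer cells that express a gene and less RNA per cell cannot be told apart.

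**Figure D1:**
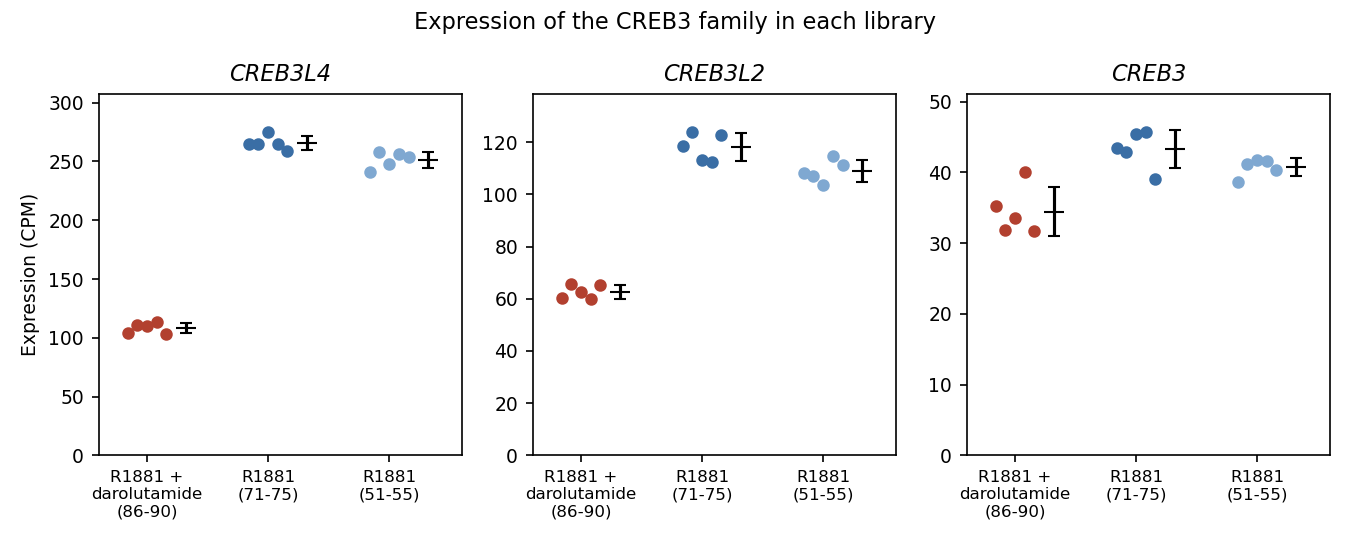
Expression in CPM of the 3 measured family members, with 1 point per library, libraries in order of their number, and bars for the mean ± SD over the 5 libraries of a run. CREB3L4 lies between 103.2 and 113.4 CPM with R1881 + darolutamide and above 241 CPM in every R1881 library, while for CREB3 the R1881 + darolutamide library at 40.0 CPM falls within the range of the R1881 libraries.

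The members were also compared between the runs of R1881 libraries, which share their treatment. CREB3L4 was 266 ± 5.78 CPM in the libraries numbered 71 to 75 and 251 ± 6.98 CPM in those numbered 51 to 55 (SD, n = 5 each), CREB3L2 was 118 ± 5.26 and 109 ± 4.17 CPM, and CREB3 was 43.3 ± 2.65 and 40.7 ± 1.27 CPM. For CREB3L4 every library numbered 71 to 75 lay above every library numbered 51 to 55, by a margin of 258.8 against 258.1 CPM, as held for 1.9% of all genes. None of the 3 members passed limma's test of this difference, which called 1.1% of all genes. The log2 differences were 0.08 for CREB3L4 (adjusted p = 0.257), 0.12 for CREB3L2 (adjusted p = 0.181) and 0.09 for CREB3 (adjusted p = 0.494). Against the libraries numbered 71 to 75 in the same fit, the log2 fold change with darolutamide was -1.29 for CREB3L4, -0.91 for CREB3L2 and -0.33 for CREB3. Against those numbered 51 to 55 it was -1.21, -0.79 and -0.24 for the same genes, and each passed limma's test.

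The 3 members fell by different amounts. The log2 ratio of 2 members within a library depends very little on how the library was scaled, and it was compared between treatments with an exact two-sided permutation test over the 3003 arrangements of the libraries. The log2 ratio of CREB3L4 to CREB3L2 was 0.78 ± 0.094 with R1881 + darolutamide (SD, n = 5) and 1.19 ± 0.070 with R1881 (SD, n = 10), a difference of -0.40 (exact permutation p = 0.000666). That of CREB3L4 to CREB3 was 1.64 ± 0.12 and 2.61 ± 0.051 in the same order of groups, a difference of -0.97 (exact permutation p = 0.000666). That of CREB3L2 to CREB3 was 0.86 ± 0.19 and 1.42 ± 0.11, a difference of -0.56 (exact permutation p = 0.000666). In none of the 3 ratios did the groups overlap, all 5 R1881 + darolutamide libraries lying lower, and the Benjamini-Hochberg adjusted p over the 3 pairs was also 0.000666, which is 2 times the one-sided 0.000333 of the most extreme arrangement.

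**Figure D2:**
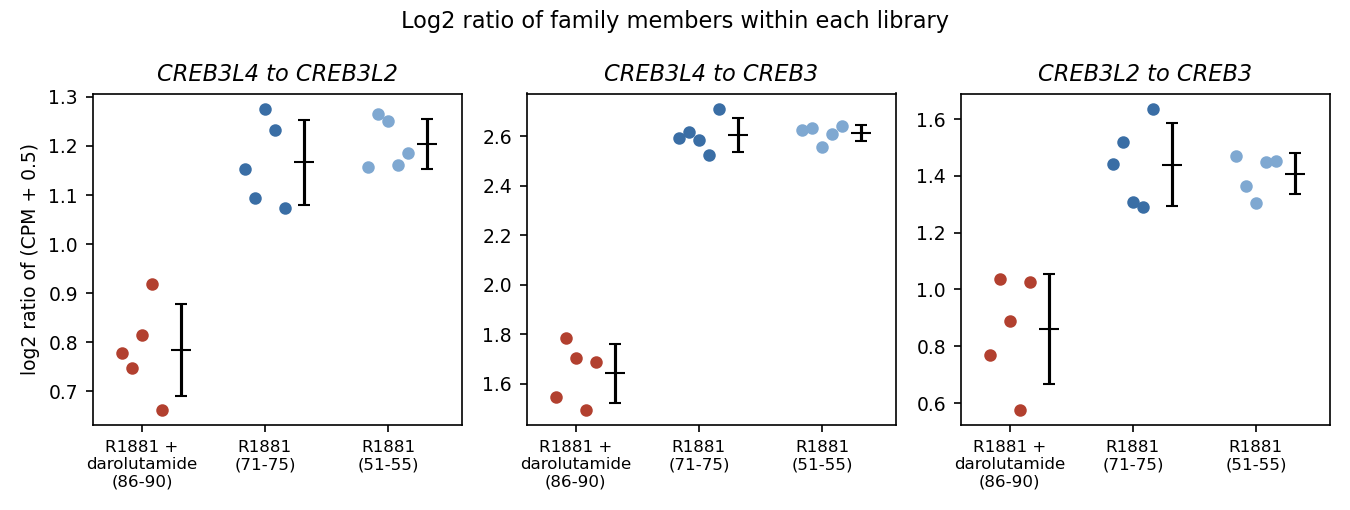
Log2 ratio of (CPM + 0.5) between each pair of members within each library, with 1 point per library, libraries in order of their number, and bars for the mean ± SD over the 5 libraries of a run. The ratio of CREB3L4 to CREB3 lies between 1.49 and 1.78 with R1881 + darolutamide and between 2.52 and 2.71 with R1881, and each panel has its own axis, which does not start at 0.

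Through these unequal falls the make-up of the family changed. Per kilobase of the MANE Select transcript, CREB3L4 was the most abundant member at 61.9 ± 2.57 CPM per kb with R1881 + darolutamide and 148 ± 5.49 CPM per kb with R1881. CREB3 followed at 23.0 ± 2.29 and 28.1 ± 1.59 CPM per kb, and CREB3L2, whose transcript is 7441 bases long against 1749 for CREB3L4 and 1496 for CREB3, was lowest at 8.43 ± 0.36 and 15.3 ± 0.89 CPM per kb. No library of 1 member overlapped the range of the next in either group. The order was the same with the length of all annotated exons, which for CREB3L2 is longer still at 8807 bases. It therefore cannot show the order for a shorter CREB3L2 form, and the forms present in these cells were not measured. The levels of the 3 members summed to 205 ± 5.77 CPM with R1881 + darolutamide and 414 ± 15.7 CPM with R1881. Of the summed reads, CREB3L4 took 52.7% ± 0.81 with R1881 + darolutamide and 62.4% ± 0.72 with R1881, CREB3L2 took 30.5% ± 1.70 and 27.4% ± 1.04, and CREB3 took 16.8% ± 1.42 and 10.1% ± 0.42.

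Some annotated exons of the members overlap those of genes on the opposite strand. CREB3L4 shares 280 exonic bases with SLC39A1, a zinc transporter gene at its 5′ end, and 93 with JTB at its 3′ end, and CREB3 shares 134 with GBA2, the gene of a glucosylceramidase. The library kit marks strand, but the strand setting of the counting is not given in the sources used here. SLC39A1 was 71.6 ± 6.25 CPM with R1881 + darolutamide and 87.0 ± 4.33 CPM with R1881 (log2 fold change -0.28, adjusted p = 0.000113 from limma), a smaller fall than that of CREB3L4. JTB was 84.9 ± 6.14 and 86.8 ± 5.06 CPM in the same order (log2 fold change -0.03, adjusted p = 0.630). GBA2 was 89.9 ± 6.27 and 110 ± 6.40 CPM (log2 fold change -0.29, adjusted p = 7.74e-05), a change of about the size seen for CREB3, and the part of shared reads in the CREB3 result was not tested.

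A list of 9 genes of regulated intramembrane proteolysis, the process that cuts the family, was examined. Only MBTPS1 and MBTPS2 in it are proteases that cut the family, and the others are further factors cut in this way or sterol regulators. Of the 9 genes, limma called 4 lower and 1 higher and left 4 uncalled (median log2 fold change -0.11, against 0.00 over all genes). These were 44.4% lower and 11.1% higher, beside 23.7% and 22.8% of all genes. Without R1881 + darolutamide replicate 3, 2 were called higher. MBTPS2, the site-2 protease, was lower at 81.4 ± 5.26 CPM against 109 ± 7.84 CPM with R1881 (log2 fold change -0.42, adjusted p = 4.61e-06), whereas MBTPS1, the site-1 protease, stood at -0.05 (adjusted p = 0.165). ATF6 and ATF6B, ER stress factors cut by the same proteases, had log2 fold changes of -0.04 (adjusted p = 0.554) and 0.18 (adjusted p = 0.185). SREBF2, a sterol factor, and SCAP, its escort, were lower at -0.37 and -0.67. SREBF1, the other sterol factor of the list, was not called (log2 fold change -0.11, adjusted p = 0.685). The 2 INSIG genes, which retain SCAP in the ER, moved in opposite directions. INSIG1 was 96.6 ± 5.06 CPM with R1881 + darolutamide and 175 ± 6.39 CPM with R1881 (log2 fold change -0.86), and INSIG2 was 44.5 ± 3.37 and 23.3 ± 1.46 CPM (log2 fold change 0.92).

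Genes of vesicle transport were mostly lower. The family is known to activate this pathway, but a part of its members in the lower values was not tested. Of 16 genes of the COPII coat and ER exit, limma called 12 lower and 3 higher and left 1 uncalled (median log2 fold change -0.40), which makes 75.0% lower beside 23.7% of all genes, and MIA2 was not analysed here. The largest fall was in SEC24D, a cargo adaptor, at 41.8 ± 2.30 CPM with R1881 + darolutamide and 93.8 ± 5.54 CPM with R1881 (log2 fold change -1.16, adjusted p = 5.51e-13). SEC24B and SEC24C, adaptors of the same group, were at -0.75 and -0.53. SEC23A, the target of CREB3L2 in mouse cartilage, was slightly higher (log2 fold change 0.13, adjusted p = 0.0120), as were KLHL12, a ubiquitin ligase adaptor for large COPII carriers, at 0.23 and SEC31B at 0.49, while SEC23B was at -0.38. Of 21 genes of the COPI coat, KDEL receptors and Golgi, 19 were called lower, none higher, and 2 were not called (median -0.43), a share lower of 90.5% beside the same 23.7%. KDELR2, which returns ER proteins from the Golgi, was 265 ± 17.2 CPM with R1881 + darolutamide and 439 ± 18.0 CPM with R1881 (log2 fold change -0.73). GOLGA2, a Golgi matrix protein, was at -0.83, GBF1, an exchange factor for ARF proteins, at -0.58, and ARF4, a small GTPase regulated by CREB3 in human cells under Golgi stress, at -0.61 (adjusted p = 1.21e-09).

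Most listed genes of the unfolded protein response were lower, and relatives of the family outside the ER membrane were examined beside them. Of 16 genes of the unfolded protein response, 12 were called lower and 1 higher, and 3 were not called (median log2 fold change -0.43), with 75.0% lower beside 23.7% of all genes. ERN1, the sensor kinase IRE1α, was 47.8 ± 1.04 CPM with R1881 + darolutamide and 112 ± 6.93 CPM with R1881 (log2 fold change -1.22, adjusted p = 9.85e-14), and its substrate XBP1 was at -0.59. ATF4, a factor of the PERK branch, was not called (log2 fold change -0.10, adjusted p = 0.0515). HERPUD1, a factor of ER-associated degradation and a known CREB3 target, was at -0.73, and DNAJB9, an ER co-chaperone, at -1.22. DDIT3, the stress factor CHOP, was higher at 21.0 ± 1.63 CPM against 14.9 ± 1.15 CPM with R1881 (log2 fold change 0.48). Of 14 genes that are relatives or cofactors of CREB and ATF, 1 was called lower and 4 higher (median 0.01). The other 9 were not called, beside 9228 uncalled among all 17272 genes. The share called higher, 28.6%, lay near the 22.8% of all genes, and the share called lower was 7.1% beside 23.7%. CREB3L3, the liver member of the family, was not analysed here. On the log2 scale CREB1 stood at 0.02 (adjusted p = 0.784), ATF1 at -0.09 (adjusted p = 0.179) and HCFC1 at -0.17 (adjusted p = 0.366). The higher ones were CREBZF, a bZIP protein that also binds HCFC1, at 0.41, CREBL2 at 0.22, CREB5 at 1.14 and CREBBP at 0.11. For CREBBP limma's adjusted p was 0.0390. CREB5 stood at a low level of 2.08 ± 0.24 CPM with R1881 + darolutamide and 0.70 ± 0.31 CPM with R1881. The lower one was EP300, a histone acetyltransferase, at -0.13, a call that was lost when scaled by library totals (adjusted p = 0.162), and without R1881 + darolutamide replicate 4 the list had 2 lower genes.

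**Figure D3:**
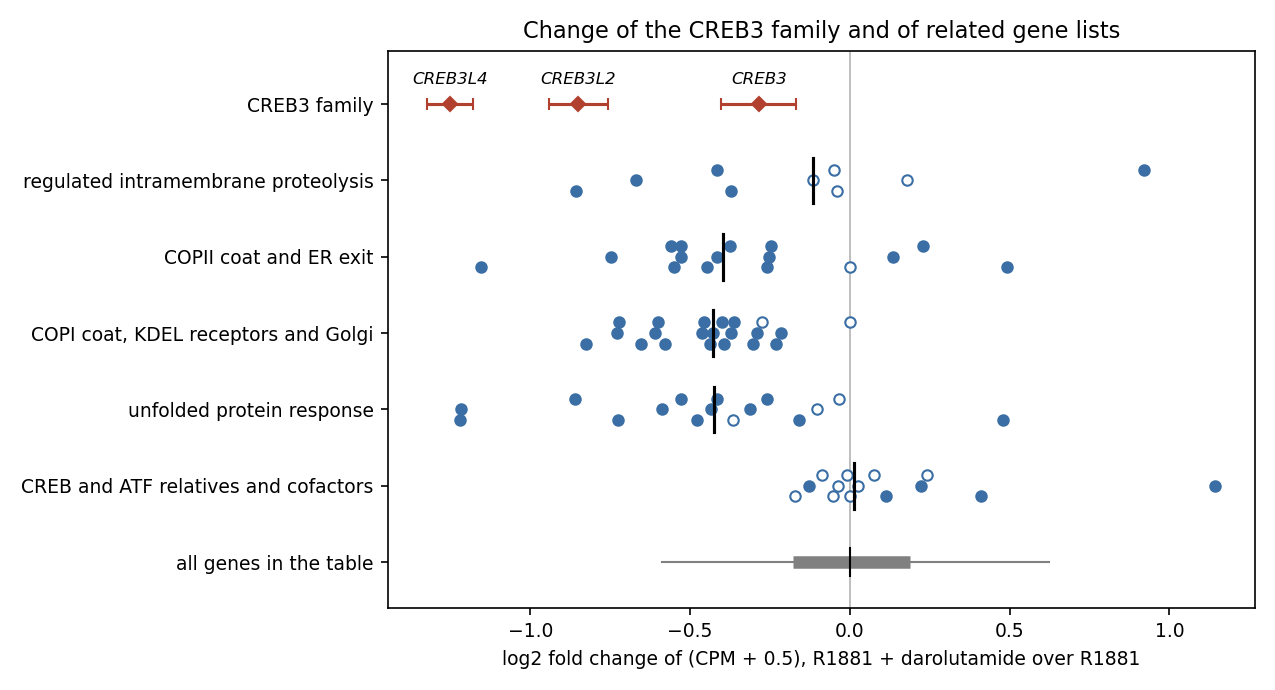
Log2 fold change of (CPM + 0.5), R1881 + darolutamide over R1881, for the 3 members with their 95% intervals, for each gene of 5 related lists (filled points passed limma's test, open points did not, bars mark the median) and for all genes (line from the 5th to the 95th percentile, box for the quartiles, bar for the median). The medians lie at -0.40 for COPII, -0.43 for COPI and Golgi and -0.43 for the unfolded protein response, and at 0.01 for the CREB and ATF relatives.

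The genes whose pattern was most like that of each member were taken from the 12148 genes with a mean of at least 5 CPM, by Pearson's correlation of log2(CPM + 0.5) over the 15 libraries. These libraries share the contrast of treatment, so that any gene with a large change in the same direction scores high. For CREB3L4 the most similar genes were NDRG1, an androgen-induced gene (r = 0.999), SEC14L2 (r = 0.998) and TMPRSS2, an androgen-induced protease gene (r = 0.998), and 124 genes reached 0.99. For CREB3L2 they were HIST2H2BE (r = 0.995), SEC24D (r = 0.993) and UGT2B28 (r = 0.992), and 9 genes reached 0.99. For CREB3 they were DNPEP (r = 0.961), SEC61B (r = 0.957) and CHMP4B (r = 0.955), and none reached 0.99. NDRG1 was 111 CPM on average with R1881 + darolutamide and 766 CPM with R1881, and TMPRSS2 was 276 and 850 CPM.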

How the data were processed

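RNA was sequenced from 15 libraries of LNCaP cells. Per the labels and methods, single-end sequencing ran for 50 cycles, and the authors used STAR with GRCh38 and counted per gene with featureCounts (bcl2fastq 2.17 is named in the submitters' processing notes). Versions of the aligner and counter, the annotation, the scaling and the gene filter are not given in the sources used here. The deposited values, called CPM by the study, are a scaled signal. In it 100% of the values were whole reads (tolerance 0.001 reads) divided by 1 factor per library. The columns summed to 1005403 to 1031224 with R1881 + darolutamide and to 1053406 to 1078567 with R1881, so the groups did not overlap in this sum. No column was left unmapped.

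The main test was limma (3.58.1) with trend on log2(CPM + 0.5) for all 17272 genes without a filter, adjusted by Benjamini-Hochberg over all genes at 0.05. Fold changes are on that scale and are understated for genes of low level. The study calls the libraries biological replicates, whose spread is all that the p-values take in. Alternatives were edgeR (4.0.16) and DESeq2 (1.42.0) on recovered reads, pseudocounts of 0.1 and 1, a minimum mean of 1 CPM, scaling by library totals, the replicate number as a block, either R1881 run alone and libraries left out. The tests were also run on simulated counts, which held no difference between runs and so cannot address that limit.

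The members and lists were chosen with earlier results of these data known. Lists came from general knowledge. Ratios were tested for 3 pairs of members in place of the 6 planned, since CREB3L1 was not analysed. Named from each list were the 3 genes of smallest p at 1 CPM or more and the strongest call against the list's direction, beside the 3 genes most like each member and KLK3. Further genes were named after their values were seen. Among them were MBTPS1, ATF6, ATF6B, SREBF1, SREBF2, SCAP, SEC23A, SEC23B, SEC31B, ARF4, XBP1, ATF4, CREB1, ATF1, HCFC1 and CREBBP. The marker genes KRT8, KRT18, FOLH1, EPCAM, CDH1, HOXB13 and ACPP were named in the same way. GENCODE version 44 gave positions and lengths and may not be the annotation that was used for counting. The result for 1 marker gene is not reported here.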

Additional observations from a re-analysis of the deposited data

Results flagged for a closer look

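A gap test was run on 42 sets of values, each of 1 gene in 1 treatment, and singled out 1 library in 3 of them, where about 1 in 20 sets is expected by chance. None of them was a value of CREB3, CREB3L2 or CREB3L4. MBTPS2 was 72.3 CPM in R1881 + darolutamide replicate 4, against 82.2 to 85.0 CPM in the others. SEC24D was 45.8 CPM in R1881 + darolutamide replicate 1, against 40.4 to 41.7 CPM in the others. EP300 was 114.5 CPM in R1881 replicate 5, against 124.1 to 128.8 CPM in the others.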

How the results depend on the processing

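CREB3, CREB3L2 and CREB3L4 stayed lower and past the threshold under all 25 alternatives, with log2 fold changes of -0.34 to -0.21, -0.91 to -0.78 and -1.29 to -1.18, and the largest adjusted p of 0.0219 was that of CREB3 with the replicate block. The replicate numbers were not taken as pairs, since same-numbered libraries had correlations of -0.139 to 0.335 in their deviations from the treatment means, and 1 of 5 R1881 + darolutamide libraries was closest to its own number. With the replicate block the log2 fold change was -0.29 for CREB3, -0.88 for CREB3L2 and -1.26 for CREB3L4, and 3165 genes were lower and 3077 higher. The fold changes of that setting rest on same-numbered libraries alone. R1881 libraries whose number no R1881 + darolutamide library shares add nothing to them. The 3 ratios between members kept their direction and call under the 5 alternatives run for them, and the differences between the R1881 runs stayed short of the threshold under the 4 run for them. In the list of CREB and ATF relatives the number of lower genes was 0 in place of 1 when scaled by library totals, with the replicate block or against R1881 libraries 71 to 75 only, where EP300 lost its call, and it was 2 without R1881 + darolutamide replicates 3 and 4 together and 1 to 2 with any 1 library left out, being 2 without R1881 + darolutamide replicate 4. The number of higher genes in that list was 3 to 4 with any 1 library left out. With 1 library left out, the number of higher genes of intramembrane proteolysis was 1 to 2, being 2 without R1881 + darolutamide replicate 3. Depth limits CREB3 most, at 578 to 1010 reads per library.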

Other observations

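Likeness to the members was also taken within runs of library numbers, after removing the mean of each of the 3 runs, so that the treatment no longer enters. It is a description over the same 15 libraries, whose differences in depth and composition are shared by all genes. The highest values were for KLC1, a kinesin light chain, with CREB3 (r = 0.947), POMGNT1, a Golgi glycosyltransferase, with CREB3L4 (r = 0.903) and ERC1 with CREB3L2 (r = 0.889). KLC1 averaged 13.5 CPM with R1881 + darolutamide and 13.7 CPM with R1881, and POMGNT1 averaged 160 and 199 CPM. Next for CREB3 came KRT18P1 (r = 0.927) and DHRS13 (r = 0.919), for CREB3L4 YBX1P6 and PHB2 (r = 0.903 and 0.899), and for CREB3L2 RPL36AP13 and PIP4K2B (r = 0.887 and 0.860). KRT18P1, YBX1P6 and RPL36AP13 are pseudogenes whose reads can be shared with near-identical copies. None of these genes was among the 3 most similar over the libraries as they are.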
